A study of Mus musculus with 18 samples.

Results

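The genes of synaptic vesicles and of the SNARE machinery were followed through a time course of axon injury in cultured mouse sensory neurons. The members were the protein-coding genes whose GENCODE vM21 symbol names a synaptotagmin, syntaxin, syntaxin-binding protein, SNAP protein, VAMP, synapsin, SV2 protein, complexin, Rab3, RIM, Munc13 (Unc13), synaptophysin, synaptogyrin or synaptoporin, 95 of the 47643 genes counted. The annotation holds 96 genes with such a symbol, and Vamp7 was not analysed here. By role there were 17 synaptotagmins, 15 syntaxins, 7 VAMPs, 4 SNAP proteins, 7 syntaxin-binding proteins, 4 complexins, 8 active zone and priming proteins (RIM and Munc13), 3 synapsins, 9 vesicle membrane proteins, 4 Rab3 GTPases, 4 regulators of Rab3, Snap91, and 12 Rab GTPases from Rab30 to Rab39b that the letters of the Rab3 symbol take in.

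Dorsal root ganglia (DRG) of e13.5 embryos of CD-1 mice were grown as spot cultures with FDU, a mitotic inhibitor that removes dividing cells, and every group shared these conditions. The control was uninjured and collected at DIV7, the other 5 groups had their axons cut with a blade and were harvested after 1, 3, 8, 16 and 24 hours (hours post injury, HPI), and each of the 6 groups had 3 replicates. According to the study's methods the axons were cut at DIV7. No uninjured group was collected at the later hours, so injury and added time in culture cannot be told apart in any comparison of these groups. The model holds cultured embryonic neurons, and the labels do not say whether replicates came from separate litters or cultures, so p-values measure only the spread between these samples. In such bulk RNA, fewer cells of a type and less RNA per cell cannot be told apart.

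A synaptic vesicle fuses when VAMP on the vesicle pairs with syntaxin and SNAP-25 on the plasma membrane into the SNARE complex. Munc13 (Unc13) guides that pairing, RIM and Rab3 hold vesicles at the active zone, synapsins tether the reserve of vesicles, and synaptotagmins with complexins tie fusion to calcium. Sensory neurons release transmitter at their central endings in the spinal cord, and many relatives of these genes serve traffic at the Golgi apparatus, endosomes and autophagosomes in every cell.

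Counts on genes ranged over the libraries from 9478891 to 23082327, with 13756966 to 20428645 in control. Sensory neuron markers were abundant, with a summed level of 9583 to 9796 CPM (counts per 1000000 counts of a library, scaled by TMM) in control, 8207 to 8972 at 16 HPI and 8669 to 8708 at 24 HPI over 8 genes. The 10 markers of satellite glia and Schwann cells summed to 3.10 to 28.0 CPM in control, 3.74 to 15.9 at 16 HPI and 3.18 to 52.6 at 24 HPI, with no library over 3 counts for Mag. The 5 fibroblast markers summed to 1.77 to 5.49 CPM in control, 3.45 to 8.31 at 16 HPI and 3.08 to 9.96 at 24 HPI. The 5 myeloid markers summed to 3.54 to 5.13 CPM in control, 5.40 to 6.06 at 16 HPI and 5.44 to 6.92 at 24 HPI, and the 5 endothelial markers to at most 2.01 CPM in any library. Of the 8 neuron markers 2 were lower at 16 HPI, and 3 were lower and 2 higher at 24 HPI, whereas none of 4 tested glial markers was called. Dcn of fibroblasts, 1 of 3 tested (log2 fold changes 2.07 and 2.22) and Cd68 of myeloid cells, 1 of 2 tested (0.97 and 0.93) were higher than control at 16 and 24 HPI by edgeR's quasi-likelihood test. Replicate 1 at 16 HPI stood apart in residual rRNA fragments, at 53709 CPM against 10067 to 19180 in the other libraries.

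In the uninjured cultures most of the members were already transcribed, over a wide range of levels. Of the 95 members, 85 had over 3 counts, taken as the limit of detection, in every control library, and 80 exceeded 1 CPM in each. To compare genes, levels were expressed per kilobase of exon as RPKM, whose median over the members was 6.75, with 26 members over 40 RPKM and 22 under 1. The highest was the complexin Cplx1, which clamps and promotes fusion, at 176 ± 23.6 RPKM (SD, n = 3). Next came Syt4 (148 ± 15.7) and Syt11 (145 ± 2.85), synaptotagmins that lack a calcium-binding residue, the vesicle membrane protein Syngr3 (125 ± 4.03) and the SNAP-25 relative Snap47 (122 ± 2.60). These neighbours overlapped within their SDs except that Syt11 lay above Syngr3, so that their order is known only in part.

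By total exon length the neuronal core of the machinery lay below these. Per length of the longest transcript the order changed, so it depends on the length used. By that measure Snap47 had 170 RPKM, Syp 159 and Rab3a 133, against 151 for Syt11, 148 for Syt4 and 131 for Syngr3. The levels that follow use total exon length unless stated. Rab3a had 92.9 ± 3.48 RPKM, the vesicle protein synaptophysin (Syp) 86.7 ± 8.09, the plasma membrane SNARE Stx1a 69.2 ± 2.20, Snap25 58.4 ± 2.54, Syn1 57.4 ± 6.44 and the vesicle SNARE Vamp2 53.2 ± 6.0 (SD, n = 3). Among the calcium sensors, Syt9 (48.2 ± 8.64), Syt5 (45.8 ± 5.63) and Syt2 (43.9 ± 5.68) were above Syt1 (27.0 ± 0.260) and Syt7 (11.9 ± 2.45). Per longest transcript Syt1 had 46.7 RPKM, near Syt9 (50.3) and Syt2 (48.7), with Syt5 at 62.2 and Syt7 at 13.5. Of the active zone genes Rims3 led with 73.1 ± 3.88 RPKM, followed by Unc13a with 21.7 ± 0.756 and Rims1 with 10.2 ± 1.38. The remaining leaders of a role were Rab33a (60.2 ± 10.1), Snap91 (41.2 ± 0.902) and Rab3gap2 (8.96 ± 0.521).

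Some members were scarce. Vamp5, Vamp9, Cplx3, Cplx4, Syngr4, Syt8 and Rab38 stayed at or under 3 counts in each of the control libraries. Cplx3 and Cplx4, the complexins of retinal ribbon synapses, reached at most 3 and 1 counts in any of the 18 libraries, and Syt8 had none, which is below what this depth can detect. Vamp8, an endosomal and secretory-granule SNARE, had 5, 0 and 1 counts in the control libraries. The granule SNARE Snap23 (0.790 ± 0.187 RPKM), the syntaxin-binding genes Stxbp2 and Stxbp3, and Synpr (0.135 ± 0.0278 RPKM) were present at low level.

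**Figure D1:**
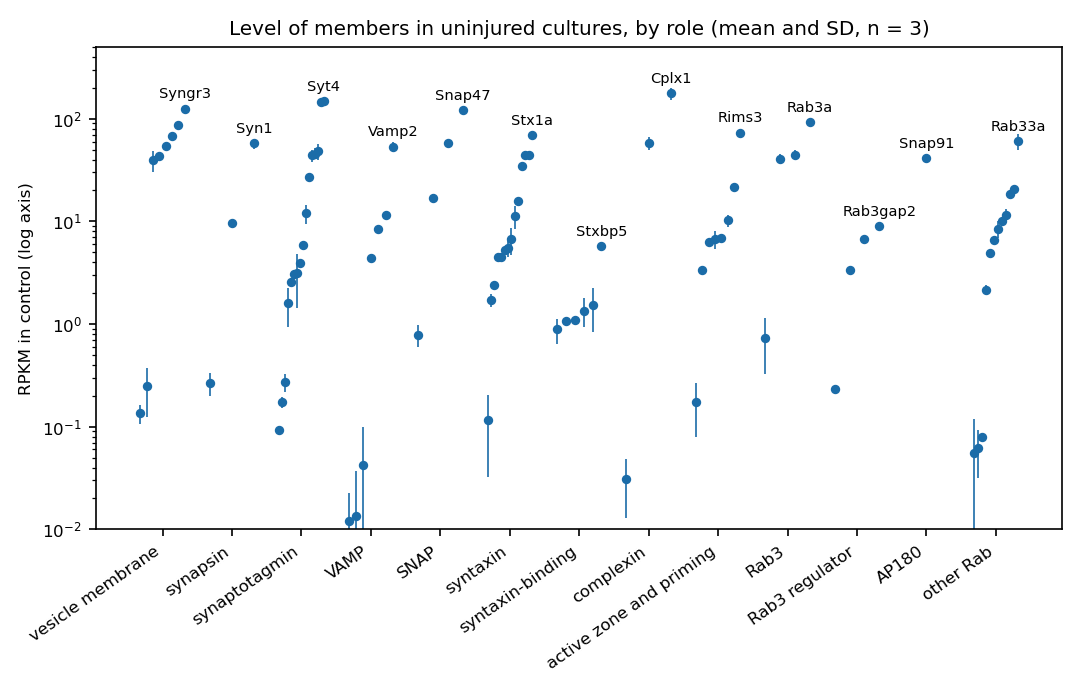
Level of 90 of the 95 members in the 3 uninjured control cultures, as RPKM on a log axis, by role, with the mean (points) and SD (bars, ended at the axis where they pass below it), and the highest plotted member of each role named. Cplx1 led at 176 RPKM, and Cplx4, Syngr4 and Syt8, at 0 counts, lie off the axis.

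The first question was when the members changed after axotomy. The counts of all genes were fitted together with terms for time point and replicate number, and each time point was compared with the same 3 control libraries, so the 5 comparisons are not independent. Of the 95 members, 82 passed the filter of over 1 CPM in at least 3 libraries, and the other 13 (Vamp5, Vamp8, Vamp9, Unc13d, Cplx3, Cplx4, Rab32, Rab37, Rab38, Syt8, Syt15, Stx19 and Syngr4) were not tested. A member was called with an adjusted p under 0.05 in edgeR's quasi-likelihood test. At 1 HPI 0 of 82 members were called, against 0.276% of all 13771 genes tested, and at 3 HPI 0 of 82, against 0.189%. By the same test 16 and 11 of the 82 members had an unadjusted p under 0.05 at these times, against 12.8% and 14.5% of all genes, and DESeq2's Wald test called 0 and 2.

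At 8 HPI 3 members were called (3.66%), where 7.68% of all genes were. The Golgi-associated GTPases Rab39b (log2 fold change 0.24, SE 0.06, adjusted p = 0.0139) and Rab33b (log2 fold change 0.23, SE 0.07, adjusted p = 0.0473) rose, and the active zone scaffold Rims1 fell (log2 fold change -0.19, SE 0.05, adjusted p = 0.0236). Without the replicate block 0 of these were called, and leaving out Control replicate 1 kept 0 of the 3 calls, while leaving out Control replicate 2 or 3 or 8HPI replicate 1 or 3 kept 1.

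At 16 HPI 30 of the 82 tested members were called (36.6%), against 22.2% of all genes, 9 higher and 21 lower. Higher genes made up 10.7% of all genes and lower ones 11.5%. At 24 HPI 30 members were again called (36.6%), against 15.0% of all genes, 8 higher and 22 lower, where 5.99% of all genes were higher and 9.03% lower. Each of these calls went the same way in 3 of 3 replicates, each against the control of its number. A call in a fit with the replicate block largely requires this, so it is not separate support. At each time 13 calls held with every library left out in turn. The members called at both times numbered 23, of which 17 were lower and 6 higher at each, out of 37 called at either. A test of any difference among the 6 groups called 39 members (47.6%), against 30.0% of all genes. The tested members had a higher level, with a median of 5.94 log2 CPM against 4.31 over all genes tested. Small changes are easier to call at higher counts, and the part of level in these shares was not tested.

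Most of the changes were small. The median log2 fold change of the 82 members was -0.10 at 16 HPI and -0.06 at 24 HPI, where that of all genes was 0.00 at each, and 2 members, Syt12 and Syngr2, passed 2-fold at both times, where 1.49% and 0.821% of all genes did. Of the called members the median absolute log2 fold change was 0.27 at both times, against 0.35 at 16 HPI and 0.31 at 24 HPI over all called genes. The summed level of the 95 members was 10819.6 to 11448 CPM in control, 11159 to 11468 at 8 HPI, 10028 to 10648 at 16 HPI and 9948 to 10795 at 24 HPI, so the last 2 groups lay below control without overlap. The sums of the sensory neuron markers were below control at the same times, and their part in the decline of the members was not tested. Without the replicate block 8 members were called at 16 HPI (3 higher, 5 lower) and 3 at 24 HPI (1 higher, 2 lower). The shares of all genes called without the block are not given here. Whether the members stood above all genes in that fit therefore cannot be said. Leaving out 16HPI replicate 3 or Control replicate 1 kept 19 of the 30 calls at 16 HPI, and leaving out 24HPI replicate 3 or Control replicate 2 kept 19 and 17 of the 30 at 24 HPI, while the fit without 16HPI replicate 1, the library with the most rRNA fragments, kept 21.

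**Figure D2:**
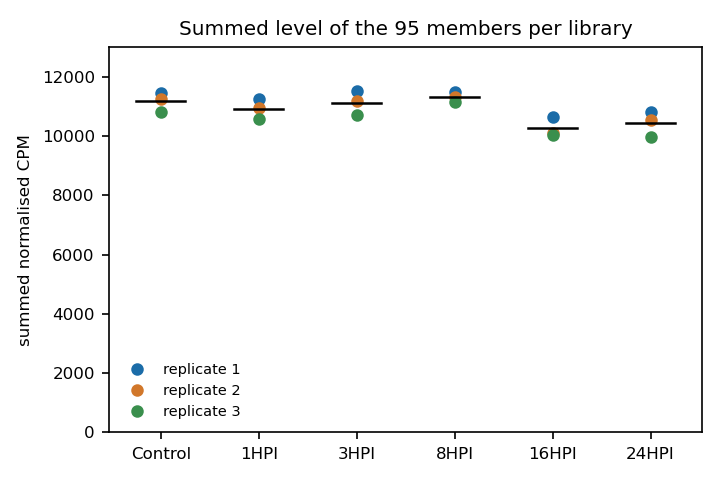
Summed normalised CPM of the 95 members in each of the 18 libraries (points, coloured by replicate number) with the mean of each group (line). The control libraries span 10819.6 to 11448 CPM and all 3 libraries at 16 HPI lie under them, at 10028 to 10648 CPM.

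**Figure D3:**
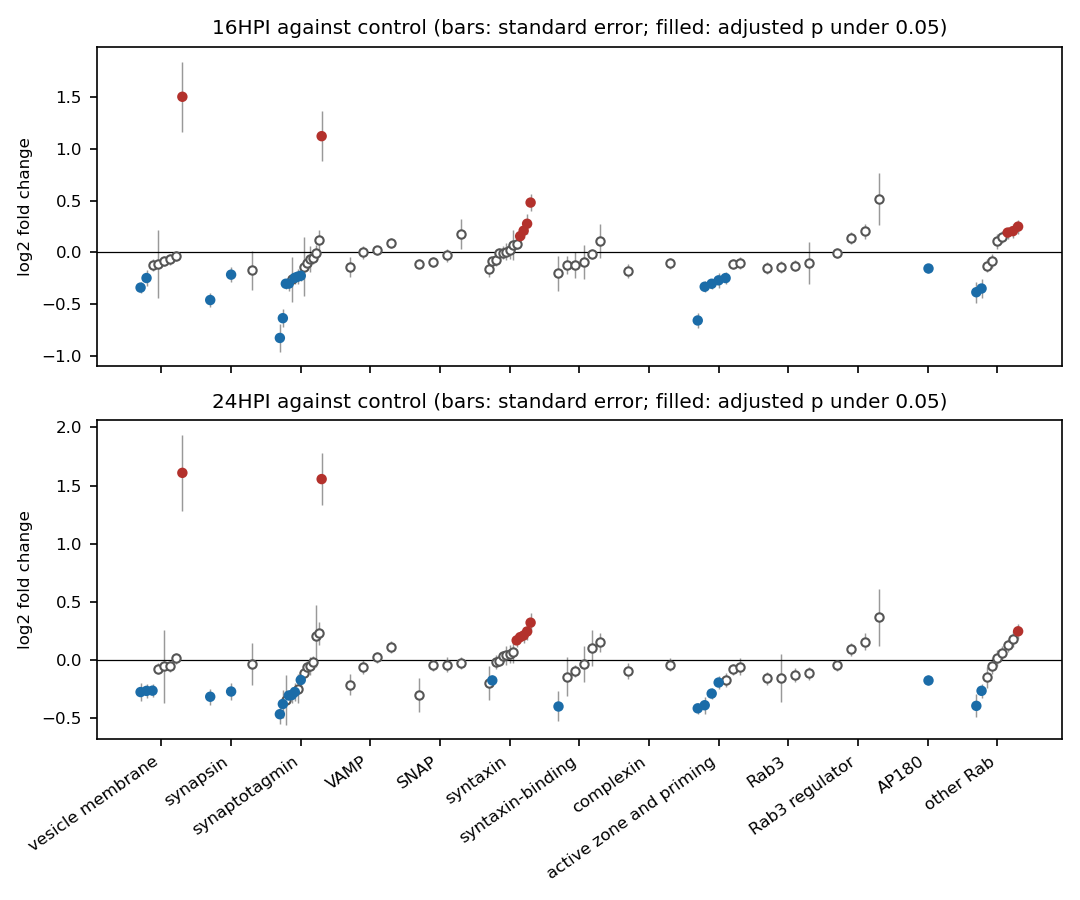
Log2 fold change of 80 of the 82 tested members against control at 16 and 24 HPI, by role, with its standard error as the bar. Filled points have an adjusted p under 0.05 (blue lower, red higher, 28 at each time), and the VAMP, SNAP, complexin, Rab3 and Rab3 regulator columns hold none.

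The active zone and priming genes, which make vesicles ready for fusion, were lower for 5 of 7 tested at 16 HPI and 4 of 7 at 24 HPI, with none higher. Lower genes made up 11.5% and 9.03% of all genes at these times. All 7 had a negative estimate at both times, as had 58 and 56 of the 82 tested members. Their summed level went from 1171 to 1176 CPM in control to 992 to 1056 at 16 HPI and 1025 to 1034 at 24 HPI. Unc13a (ENSMUSG00000034799.16, chromosome 8 from 71624417 to 71671757, GRCm38), the principal Munc13 priming factor of most synapses, had 273, 282 and 270.4 CPM in control, 237, 249.9 and 263 at 1 HPI, 256, 247 and 273 at 3 HPI, 246, 259.9 and 266 at 8 HPI, 213, 234 and 223 at 16 HPI and 195, 209.9 and 215 at 24 HPI. Every library at 16 and 24 HPI lay below every control library. Against control the log2 fold change was -0.30 at 16 HPI (SE 0.05, adjusted p = 8.9e-05) and -0.41 at 24 HPI (SE 0.05, adjusted p = 9.81e-06), and Unc13a was called without the replicate block at both times (adjusted p = 0.0109 and 0.00399). Exons of Colgalt1 on the opposite strand cover 3.92% of those of Unc13a, and Colgalt1 also fell, by 0.25 and 0.19 on the log2 scale.

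Unc13c (ENSMUSG00000062151.13, chromosome 9 from 73479422 to 73968966), a Munc13 known best from the cerebellum, had 76.1, 53.1 and 50.5 CPM in control, 49.0, 34.8 and 30.4 at 16 HPI and 64.0, 36.5 and 38.4 at 24 HPI. Replicate 1 was the highest library in all 3 groups, so the groups at 24 HPI and control overlapped although each replicate fell. The log2 estimate was -0.66 (SE 0.07, adjusted p = 2.35e-06) at 16 HPI and -0.39 (SE 0.07, adjusted p = 0.000951) at 24 HPI. Without the replicate block neither was called (adjusted p = 0.173 and 0.614).

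Of the RIM genes, which link Rab3 and calcium channels to the active zone, Rims1 had 70.5, 72.2 and 83.8 CPM in control, 57.8, 58.5 and 63.6 at 16 HPI and 55.8, 64.3 and 65.2 at 24 HPI, with no overlap between control and either time. It fell at both (log2 fold change -0.33, SE 0.05, adjusted p = 7.42e-05, then log2 fold change -0.29, SE 0.05, adjusted p = 0.000598). Rims2 also fell (-0.25 and -0.19, adjusted p = 0.0019 and 0.0168), and its libraries did not overlap with control at either time. Rims4 was called at 16 HPI (-0.27, adjusted p = 0.0111) and was at -0.06 at 24 HPI (adjusted p = 0.64), and the difference between the times was not called. Rims3, the most abundant of them, had -0.11 (95% interval -0.21 to -0.01) and -0.08 (-0.18 to 0.02) and was not called.

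The synapsins, phosphoproteins that hold vesicles in the reserve pool, were lower for 2 of 3 genes at both times, where 11.5% and 9.03% of all genes were lower. Syn2 (ENSMUSG00000009394.13, chromosome 6 from 115134902 to 115282006) had 64.9, 71.4 and 68.7 CPM in control, 56.4, 68.6 and 59.5 at 8 HPI, 47.3, 47.5 and 54.0 at 16 HPI and 53.0, 59.1 and 52.6 at 24 HPI. Control overlapped with 8 HPI and not with either later time. The log2 fold change was -0.46 at 16 HPI (SE 0.07, adjusted p = 5.29e-05) and -0.32 at 24 HPI (SE 0.07, adjusted p = 0.00304). Syn1 had 171, 202 and 197 CPM in control, 159, 159.6 and 172 at 16 HPI and 155, 167 and 149.7 at 24 HPI, and also fell (-0.21, adjusted p = 0.041, then -0.27, adjusted p = 0.0159). At 3 HPI, where it was not called, Syn1 already lay below every control library, with 162, 155 and 139 CPM. Its mean of 152 CPM there was below those at 16 HPI (164) and 24 HPI (157). Syn3, at 2.44 to 3.81 CPM in control, was not called.

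Among the vesicle membrane proteins the SV2 glycoproteins, transporter-like proteins of which Sv2a binds the antiepileptic levetiracetam, were all lower at 24 HPI. Sv2c had 583, 542 and 470.0 CPM in control, 479.8, 402 and 379.7 at 16 HPI and 506, 417 and 408 at 24 HPI (log2 fold change -0.34, SE 0.06, adjusted p = 0.000137, then log2 fold change -0.26, SE 0.06, adjusted p = 0.00275). Its groups overlapped across replicates, with replicate 1 the highest in each, and neither call held without the replicate block. Sv2b fell at 16 and 24 HPI (-0.25 and -0.27, adjusted p = 0.0194 and 0.0148). Sv2a, at 311, 311 and 328 CPM in control, had 266, 311 and 297 at 16 HPI and 226, 279.9 and 288 at 24 HPI and was called at 24 HPI (-0.26, adjusted p = 0.00321), with -0.12 at 16 HPI (adjusted p = 0.137). The tetraspan proteins of the same vesicles were not called: Syp had -0.07 and -0.05 (95% intervals -0.18 to 0.04 and -0.16 to 0.06), Syngr3 -0.09 and -0.07, and Syngr1 -0.03 and 0.01.

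Syngr2 (ENSMUSG00000048277.15, chromosome 11 from 117809668 to 117814283), a synaptogyrin found mainly outside neurons, went the other way from a low level. It had 0.356, 0.295 and 0.675 CPM in control, 0.373, 0.698 and 0.930 at 1 HPI, 0.755, 0.349 and 0.973 at 3 HPI, 0.363, 0.424 and 0.404 at 8 HPI, 1.56, 1.02 and 1.35 at 16 HPI and 1.29, 1.40 and 1.46 at 24 HPI. These values rest on few reads, 4 to 14 counts in the control libraries and at most 32 in any library. All libraries at 16 and 24 HPI were above all control libraries, while 1, 3 and 8 HPI overlapped with control. Only the libraries at 16 and 24 HPI were over 1 CPM, so Syngr2 passed the filter through the groups in which it was high. Its lack of overlap with control and its calls at these times are therefore not independent of the filter. Against control the log2 fold change was 1.5 at 16 HPI (SE 0.34, adjusted p = 0.00264) and 1.61 at 24 HPI (SE 0.33, adjusted p = 0.00205), and without the replicate block the adjusted p was 0.0373 and 0.0654. Exons of Gm20708 on the same strand cover 7.66% of its exons, and Gm20708 had 0 counts in every control, 16HPI and 24HPI library. Dcn of fibroblasts and Cd68 of myeloid cells, at 0.570 and 0.868 CPM in control, rose at the same times, and their part in the rise of Syngr2 was not tested.

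The synaptotagmins, calcium sensors and their relatives, were the largest family with 15 members tested. At 16 HPI 7 were lower and 1 higher, and at 24 HPI 6 were lower and 1 higher. Over all genes 11.5% were lower and 10.7% higher at 16 HPI, and 9.03% lower and 5.99% higher at 24 HPI. Syt3 (ENSMUSG00000030731.13, chromosome 7 from 44384102 to 44400187), a high-affinity sensor of the plasma membrane, had 19.1, 16.6 and 19.1 CPM in control, 15.5, 12.8 and 15.4 at 1 HPI, 17.1, 15.0 and 17.5 at 3 HPI, 14.9, 16.1 and 15.3 at 8 HPI, 10.9, 12.1 and 12.3 at 16 HPI and 12.7, 12.9 and 14.0 at 24 HPI. Its libraries were below control without overlap at 16 and 24 HPI. The estimate was -0.64 on the log2 scale at 16 HPI (SE 0.09, adjusted p = 1.74e-05) and -0.47 at 24 HPI (SE 0.08, adjusted p = 0.000639), and both calls held in every alternative, with and without the replicate block.

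Syt6 (ENSMUSG00000027849.18, chromosome 3 from 103575231 to 103645569), a close relative of Syt3, had the largest decline of any member at 16 HPI and was nearer control at 24 HPI. It had 20.4, 17.1 and 17.1 CPM in control, 18.6, 15.3 and 23.8 at 8 HPI, 9.17, 8.60 and 12.7 at 16 HPI and 17.8, 11.8 and 16.7 at 24 HPI. The libraries at 16 HPI were all below control and those at 24 HPI overlapped with it. The log2 fold change was -0.83 (SE 0.13, adjusted p = 9.77e-05) at 16 HPI and -0.24 (SE 0.12, adjusted p = 0.19) at 24 HPI, and the difference of the times themselves was 0.58 (SE 0.13, adjusted p = 0.00649). Exons of the pseudogene Atg4a-ps on the opposite strand cover 8.67% of its exons, with at most 5 counts in any control, 16HPI or 24HPI library.

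The sensors of fast release were lower at both times. Syt2, which with Syt1 and Syt9 triggers synchronous release, had 312, 389 and 311 CPM in control, 244, 325 and 253 at 16 HPI and 265, 307 and 245 at 24 HPI (log2 fold change -0.30, SE 0.05, adjusted p = 0.000137, then log2 fold change -0.30, SE 0.05, adjusted p = 0.00028), with replicate 2 the highest in each group. Syt1 had 234, 226 and 219 CPM in control, 212, 152 and 188 at 16 HPI and 195, 191 and 175 at 24 HPI (log2 fold change -0.30, SE 0.08, adjusted p = 0.00631, then log2 fold change -0.27, SE 0.08, adjusted p = 0.0171), and the groups did not overlap. Syt9 fell by 0.23 and 0.17 on the log2 scale (adjusted p = 0.0023 and 0.0234), and Syt7, a sensor of asynchronous release, by 0.23 and 0.30 (adjusted p = 0.0224 and 0.00668). The calls of Syt1, Syt2, Syt7 and Syt9 rested on the replicate block, with adjusted p from 0.146 to 0.874 without it. The Syt1 call at 16 HPI was also lost when 16HPI replicate 2, its lowest library there, was left out.

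Of the abundant synaptotagmins that lack a calcium-binding residue, Syt11 fell at 16 HPI (log2 fold change -0.25, SE 0.06, adjusted p = 0.00529), whereas Syt4, which is inducible by activity, had 662, 523 and 558 CPM in control, 758, 456 and 692 at 16 HPI and 804, 632 and 612 at 24 HPI. The Syt11 call was lost without the replicate block and without 16HPI replicate 2, which had 572 CPM against 710 and 646 in replicates 1 and 3. Syt4 spread widely between replicates and was not called (log2 fold change 0.23 at 24 HPI, 95% interval 0.02 to 0.44, adjusted p = 0.13). Syt13, a member without calcium binding, fell at 24 HPI (-0.38, adjusted p = 0.0441), from 17.3, 4.72 and 13.4 CPM in control to 12.4, 4.30 and 10.4. Its replicates 1 and 2 differed more than the time points did.

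Syt12 (ENSMUSG00000049303.10, chromosome 19 from 4445908 to 4477447), a vesicle synaptotagmin that does not bind calcium, was the synaptotagmin that rose. It had 0.915, 1.11 and 0.867 CPM in control, 0.640, 0.648 and 0.992 at 1 HPI, 0.917, 1.39 and 1.30 at 3 HPI, 0.786, 1.48 and 0.858 at 8 HPI, 1.92, 2.38 and 2.00 at 16 HPI and 3.18, 3.18 and 2.24 at 24 HPI. Its control counts were 15 to 18 and its highest count 68. All libraries at 16 and 24 HPI exceeded all control libraries, and those at 3 and 8 HPI overlapped with control. The log2 fold change was 1.12 at 16 HPI (SE 0.24, adjusted p = 0.00177) and 1.56 at 24 HPI (SE 0.22, adjusted p = 8.24e-05), and without the replicate block both were called (adjusted p = 0.0223 and 0.00999). Exons of A930001C03Rik on the opposite strand cover 17.2% of its exons, and that gene had at most 2 counts in any control, 16HPI or 24HPI library.

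**Figure D4:**
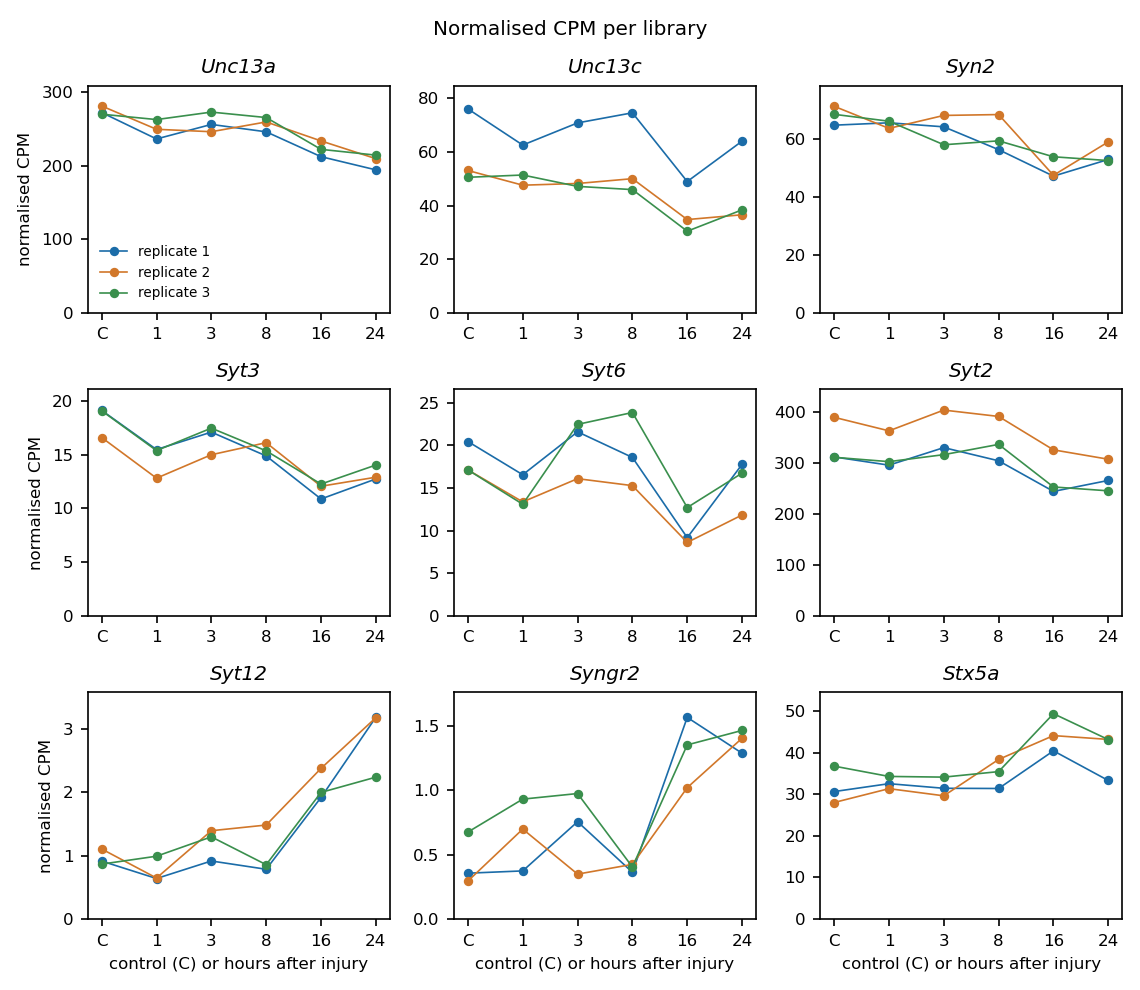
Normalised CPM of 9 members in each library, by time (C, control, or hours after injury), with a line for each replicate number. Unc13a, Syn2 and Syt3 lie below every control library at 16 and 24 HPI, Syt12 and Syngr2 above, Syt6 is lowest at 16 HPI, and Unc13c and Syt2 differ between replicate numbers in every group.

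VAMP and SNAP proteins are the partners of syntaxin at the site of fusion. None of the 4 tested VAMPs and 4 SNAP proteins was called at any time against control, where 22.2% and 15.0% of all genes were at 16 and 24 HPI. Vamp2, the vesicle SNARE of most synapses, had 185, 211 and 215 CPM in control, 196, 198 and 216 at 16 HPI and 176, 224 and 185 at 24 HPI, with log2 fold changes of 0.00 (95% interval -0.13 to 0.13) and -0.06 (-0.19 to 0.07). Vamp1 had 0.02 and 0.02, and the recycling SNARE Vamp3 -0.14 and -0.21. Snap25 had 394, 419.6 and 382 CPM in control, 365, 395 and 361 at 16 HPI and 374, 421 and 379 at 24 HPI, with log2 fold changes of -0.09 (-0.19 to 0.01) and -0.03 (-0.13 to 0.08). Over all groups Snap25 was called (adjusted p = 0.0463). The complexins Cplx1 (-0.11 and -0.04) and Cplx2 (-0.18 and -0.09) were not called at either time, and Cplx2 was called over all groups (adjusted p = 0.0116).

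Of the 14 tested syntaxins 1 was lower and 4 higher at 16 HPI, and 2 lower and 5 higher at 24 HPI. Over all genes 11.5% were lower and 10.7% higher at 16 HPI, and 9.03% lower and 5.99% higher at 24 HPI. Stx1a, of the neuronal plasma membrane, had 198, 182 and 177 CPM in control, 181, 189 and 159 at 16 HPI and 166, 166 and 161 at 24 HPI, and was called at 24 HPI (-0.18, adjusted p = 0.0203). Stx5a (ENSMUSG00000010110.17, chromosome 19 from 8741413 to 8756069), the SNARE of traffic between endoplasmic reticulum and Golgi, had 30.6, 28.0 and 36.8 CPM in control, 31.4, 38.4 and 35.4 at 8 HPI, 40.4, 44.1 and 49.4 at 16 HPI and 33.3, 43.2 and 43.1 at 24 HPI. It exceeded control without overlap at 16 HPI (log2 fold change 0.48, SE 0.08, adjusted p = 0.000222) and overlapped with it at 24 HPI (log2 fold change 0.32, SE 0.08, adjusted p = 0.0112). The call at 16 HPI held without the replicate block (adjusted p = 0.0271).

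Stx17, a SNARE of autophagosomes, rose at both times (0.21 and 0.25, adjusted p = 0.0466 and 0.0266), from 31.3, 30.7 and 31.6 CPM in control to 37.3, 38.2 and 35.6 at 24 HPI. Its mean was already 35.9 CPM at 1 HPI, where it was not called, against 36.1 at 16 HPI. The Stx17 call at 16 HPI held in 6 of 14 alternatives. Stx6 of the trans-Golgi network also rose at both (0.16 and 0.17, adjusted p = 0.0478 and 0.0425), and Stx12 of recycling endosomes at 24 HPI (0.20, adjusted p = 0.00309). Stx3, a plasma membrane syntaxin of ribbon synapses and epithelia, was higher at 16 HPI (0.28, adjusted p = 0.0425), and Stx11, known from the granules of immune cells, at 24 HPI (0.21, adjusted p = 0.0422). Stx11 had 54.2, 58.2 and 33.0 CPM in control and 61.3, 59.9 and 44.7 at 24 HPI, so the rise in each replicate was smaller than the gap between replicate 3 and the others. Its means at 1 and 3 HPI, 56.7 and 58.2 CPM and not called, were no lower than that at 24 HPI (55.3). Stx12 had a mean of 110 CPM in control, 118 at 1 HPI, 116 at 16 HPI and 126 at 24 HPI. Apart from Stx5a at 16 HPI, none of the syntaxin calls held without the replicate block.

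Of the 7 syntaxin-binding genes, Stxbp5l, a tomosyn that occupies syntaxin in place of VAMP, was lower at 24 HPI (-0.40, adjusted p = 0.0382), with 8.84, 9.29 and 9.68 CPM in control and 8.08, 6.07 and 6.99 at 24 HPI. Stxbp2 had -0.20 and -0.14 and was not called.

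None of the 4 Rab3 GTPases, which recruit RIM to vesicles, was called against control at any time, where 22.2% and 15.0% of all genes were at 16 and 24 HPI. Rab3a had 216, 217 and 192 CPM in control, 201, 182 and 187 at 16 HPI and 189.6, 202 and 169 at 24 HPI (-0.16, adjusted p = 0.0549 at 24 HPI). Rab3c was at -0.15 and -0.12, and over all groups Rab3c and Rab3d were called (adjusted p = 0.0123 and 0.00923). Snap91, the clathrin adaptor AP180 that recovers vesicle membrane, had 382, 383 and 370.3 CPM in control, 335, 348 and 337 at 16 HPI and 339, 338 and 331 at 24 HPI. It was lower at both times without overlap, by 0.15 and 0.17 on the log2 scale (adjusted p = 0.0153 and 0.0123).

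The Rab GTPases outside the Rab3 family, which share only letters with it, moved in both directions. Rab33b had 36.0, 38.3 and 32.8 CPM in control, 47.4, 42.2 and 35.8 at 8 HPI, 46.4, 41.7 and 39.1 at 16 HPI and 38.1, 35.7 and 34.3 at 24 HPI, and at 24 HPI it was below its level at 16 HPI (log2 fold change -0.23, SE 0.07, adjusted p = 0.0311). Rab39b was higher at 16 HPI (0.19, adjusted p = 0.0209), and Rab31, of traffic from the trans-Golgi network to endosomes, at 16 and 24 HPI (0.21 and 0.25, adjusted p = 0.027 and 0.0125). Rab36 was lower at both times (-0.38 and -0.39, adjusted p = 0.00883 and 0.0101), Rab39 at 16 HPI (-0.35, adjusted p = 0.00912) and Rab33a at 24 HPI (-0.26, adjusted p = 0.00548). Exons of other genes on the opposite strand cover 18.7% of those of Rab33b and 18.6% of those of Rab39b, and whether counting used strand is not given in the sources used here.

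Between 16 and 24 HPI 6 members differed, against 9.82% of all genes, or 7.32% of the members tested. Besides Syt6 and Rab33b these were Stx11 (0.37, adjusted p = 0.0015), Stxbp4 (0.28, adjusted p = 0.0361) and Unc13c (0.27, adjusted p = 0.0243), which were higher at 24 HPI, and Snap23 (-0.48, adjusted p = 0.0386), which was lower. Snap23 had 2.64, 3.54 and 4.0 CPM in control, 3.2, 3.96 and 4.32 at 16 HPI and 2.82, 2.76 and 2.74 at 24 HPI, and was called against control at neither time. Without the replicate block 0 of the 6 were called, leaving out 16HPI replicate 1 kept 1, leaving out 24HPI replicate 3 kept 2, and leaving out 16HPI replicate 3 or 24HPI replicate 1 or 2 kept 3.

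**Figure D5:**
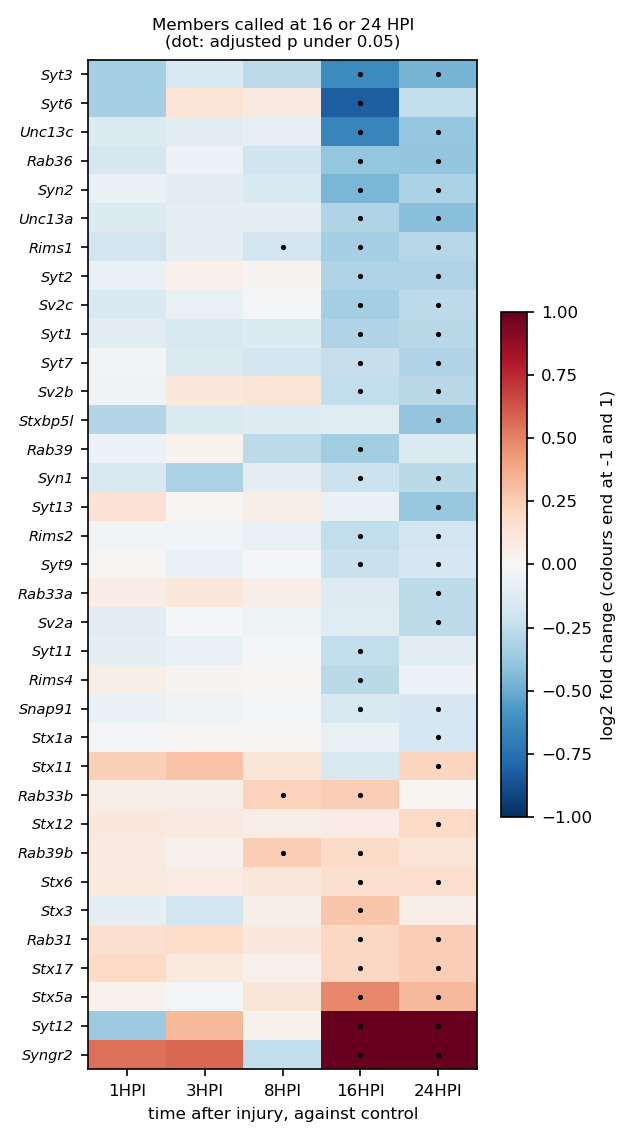
Log2 fold change against control at each time for 35 of the 37 members called at 16 or 24 HPI, ordered by the mean of those times, with dots where the adjusted p is under 0.05. Blue is lower and red higher, colours end at -1 and 1, and Syt12 and Syngr2 exceed the scale with 1.12 and 1.5 at 16 HPI and 1.56 and 1.61 at 24 HPI.

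The called members of high level were lower. Of the 26 members over 40 RPKM in control, 7 were called at 16 HPI (26.9%) and 9 at 24 HPI (34.6%), each of them lower, where 22.2% and 15.0% of all genes were called and 11.5% and 9.03% were lower. Without the replicate block 0 of the 26 were called at either time, and the share of all genes in that fit is not given here. The members that rose past 2-fold, Syt12 and Syngr2, had 0.173 and 0.250 RPKM in control, against a median of 6.75 over the members. Syngr2 passed the filter only through the groups in which it was high.

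Some members differed between replicate numbers in every group. Averaged over the 6 groups, the highest replicate number exceeded the lowest by a median of 1.15 times over the tested members, by over 1.5 times for 9 and by over 2 times for 3. The latter were Syt10 (3.04, 3.78 and 1.25 CPM in replicates 1, 2 and 3), Syt13 (16.3, 5.71 and 12.6) and Rab3b (1.53, 3.84 and 1.71). Syt9 had 231, 184 and 139.9 CPM. For Syt13 and Syt9 the difference between replicate numbers was larger than the called changes with time.

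Genes of the same pathway outside the members were counted from a list of 57, of which 56 were in the counts and 54 tested. At 8 HPI 0 were higher and 3 lower, at 16 HPI 1 was higher and 13 lower, and at 24 HPI 2 were higher and 17 lower, with medians of -0.03, -0.10 and -0.13 on the log2 scale. Of all genes 7.68% were called at 8 HPI. At 16 HPI 10.7% of all genes were higher and 11.5% lower, and at 24 HPI 5.99% were higher and 9.03% lower. The active zone scaffolds Pclo and Bsn were called from 8 HPI. Pclo (piccolo) had a log2 fold change of -0.52 (adjusted p = 0.00354) at 8 HPI, -0.62 (adjusted p = 0.000141) at 16 HPI and -0.77 (adjusted p = 3.59e-05) at 24 HPI, and Bsn (bassoon) had -0.38 (adjusted p = 0.0059) at 8 HPI, -0.24 (adjusted p = 0.0351) at 16 HPI and -0.44 (adjusted p = 0.000679) at 24 HPI. Of the dynamins, GTPases that pinch off recovered vesicles, Dnm1 had -0.37 (adjusted p = 0.000497) at 16 HPI and -0.35 (adjusted p = 0.0013) at 24 HPI, and Dnm3 had -0.19 (adjusted p = 0.0348) at 8 HPI, -0.41 (adjusted p = 1.02e-05) at 16 HPI and -0.45 (adjusted p = 1.1e-05) at 24 HPI. Nsf, the ATPase that takes SNARE complexes apart, had -0.17 (adjusted p = 0.0264) at 16 HPI and -0.27 (adjusted p = 0.00165) at 24 HPI, and the presynaptic adhesion gene Nrxn2 had -0.26 (adjusted p = 0.00148) and -0.33 (adjusted p = 0.000324) at these times. Ppfia2, a liprin scaffold, was higher at both times, with log2 fold changes of 0.26 (adjusted p = 0.000323) and 0.15 (adjusted p = 0.0396), and Sytl1 at 24 HPI, with 0.47 (adjusted p = 0.0408). The vesicular transporters Slc32a1 and Slc17a8 did not pass the filter.

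Promoter windows from RefSeq on GRCm38.p6, 250 bases before to 50 after a start, were given for 73 of the members, in 95 windows. The GC box GGGCGG, on either strand, stood in 67.4% of these windows and in 35.7% of all 32851 windows. The CCAAT box CCAAT stood in 27.4% against 37.4%, the AP-1 motif TGANTCA in 6.32% against 7.81% and the cAMP response element TGACGTCA in 2.11% against 1.79%. A match is a description of letters in a window. The windows of all genes were not matched to those of the members in GC content or expression, and a gene with several windows counted in each. These shares therefore do not show what is particular to the members. The bases before the start, up to the first annotated exon, are shown for Unc13a, the Munc13 gene whose calls at 16 and 24 HPI held in every alternative, for Syn1, whose element TGACGTCA begins 159 bases before the start, and for Syngr2, which rose. Capitals mark GGGCGG or its reverse complement, which may overlap, and TGACGTCA in Syn1. The windows are chr8:71671758-71672007 on the minus strand, chrX:20921005-20921168 on the minus strand and chr11:117809417-117809666 on the plus strand.
Unc13a: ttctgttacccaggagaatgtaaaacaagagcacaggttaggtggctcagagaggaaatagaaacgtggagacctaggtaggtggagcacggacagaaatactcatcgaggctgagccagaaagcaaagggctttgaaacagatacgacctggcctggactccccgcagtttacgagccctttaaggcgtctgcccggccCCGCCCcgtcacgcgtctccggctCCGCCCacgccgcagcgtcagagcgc
Syn1: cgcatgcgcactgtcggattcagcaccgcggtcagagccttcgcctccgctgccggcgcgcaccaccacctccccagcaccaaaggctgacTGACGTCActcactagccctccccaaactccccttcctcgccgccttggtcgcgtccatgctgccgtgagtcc
Syngr2: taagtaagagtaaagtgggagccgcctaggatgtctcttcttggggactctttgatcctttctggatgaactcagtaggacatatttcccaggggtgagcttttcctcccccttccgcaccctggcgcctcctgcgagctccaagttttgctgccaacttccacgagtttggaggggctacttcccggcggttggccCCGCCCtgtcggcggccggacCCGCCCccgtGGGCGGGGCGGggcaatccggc
The Unc13a window holds 2 GC boxes, that of Syngr2 holds 4, and that of Syn1 holds 1 cAMP response element and 0 GC boxes. Of the members with a window, Stxbp3 was the other gene with TGACGTCA.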

How the data were processed

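The deposited values are counts of reads per gene for each of the 18 libraries, which the authors made without normalization after Ribo-Zero rRNA depletion and SMARTer cDNA synthesis. The paper's methods name trimming with cutadapt, STAR and featureCounts with GENCODE vM20, whereas the submitters' processing notes name FastQC, STAR, HTSeq, DESeq2 and mm10, and the 5 closing entries of each table are those of htseq-count. These entries, reads on no gene, made up 25.2% to 33.2% of a library and were left out. Whether counting used strand is not given in the sources used here. Of 47643 identifiers 47224 matched GENCODE vM21 and 39106 carried its version number. No pair of libraries held identical counts.

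Counts were analysed with edgeR 4.0.16 in R 4.3.3, with tables and figures in Python 3.11.15. The 13771 genes that passed 1 CPM in 3 or more libraries entered the test, with TMM factors and 1 quasi-likelihood model over all libraries, with time point and the replicate number as a block, two-sided tests and Benjamini-Hochberg adjustment over all genes tested. The study's methods name a batch correction with edgeR, EDASeq and RUVSeq without saying what a batch was, and the replicate number as a block is a different step, used here in its place. Same-numbered libraries of different groups deviated together (mean correlation of deviations from the group means 0.619, from 0.484 to 0.765 over 45 pairs, against -0.308 over 90 pairs of different numbers). RPKM used the total exon length. Depth was 9478891 to 23082327 counts on genes, and the limit of 3 counts covers counting error only. Alternatives were DESeq2 1.42.0 size factors or Wald test, upper-quartile factors, other filters, no replicate block, the compared groups alone, no rRNA or mitochondrial genes, and each library left out.

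Named genes are the called members, the leading member of each role, the founding release genes and the called genes of the list outside the members, with up to 10 members in each direction given with values, and some items that this rule takes are not reported here or plotted. Members named for their spread between replicates, the members not tested and the uncalled members shown beside their family were chosen after their values were seen. The members and lists were chosen with earlier results of these data known. The method was tested on simulated data, in which the changes set were larger than most of those called here. That test does not show how well smaller changes are called. Intervals of fold changes are 95% intervals of the fit. Promoter windows came from RefSeq on GRCm38.p6, the same assembly as mm10.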

Additional observations from a re-analysis of the deposited data

Results flagged for a closer look

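For 6 members the change against control differed between 16 and 24 HPI by edgeR's quasi-likelihood test of the difference itself, a difference in which the control cancels out. Rab33b had log2 fold changes against control of 0.25 at 16 HPI and 0.02 at 24 HPI, which differed by -0.23 (SE 0.07, adjusted p = 0.0311). Snap23 had log2 fold changes against control of 0.18 at 16 HPI and -0.30 at 24 HPI, which differed by -0.48 (SE 0.14, adjusted p = 0.0386). Stx11 had log2 fold changes against control of -0.16 at 16 HPI and 0.21 at 24 HPI, which differed by 0.37 (SE 0.07, adjusted p = 0.0015). Stxbp4 had log2 fold changes against control of -0.12 at 16 HPI and 0.15 at 24 HPI, which differed by 0.28 (SE 0.08, adjusted p = 0.0361). Syt6 had log2 fold changes against control of -0.83 at 16 HPI and -0.24 at 24 HPI, which differed by 0.58 (SE 0.13, adjusted p = 0.00649). Unc13c had log2 fold changes against control of -0.66 at 16 HPI and -0.39 at 24 HPI, which differed by 0.27 (SE 0.07, adjusted p = 0.0243). Without the replicate block 0 of the 6 were called, and with 1 library left out 1 to 4 of them were. No group of 3 libraries was tested for samples far from the others.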

How the results depend on the processing

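The calls rested on the replicate block. With no replicate block the number of called members was 0 in place of 3 at 8 HPI, 8 in place of 30 at 16 HPI, 3 in place of 30 at 24 HPI, 0 in place of 6 between 24 and 16 HPI, and 5 in place of 39 over all groups. The shares of all genes called in that fit are not given here, so these counts cannot be set against them. The members called in every alternative run for them (13 for Syngr2 and Syt12, which did not pass 1 CPM in all libraries, and 14 for the others) were Rims2, Stx5a, Syn2, Syngr2, Syt12, Syt3, Syt6 and Unc13a at 16 HPI, and Syt12, Syt3 and Unc13a at 24 HPI. Among these, Syngr2 passed the filter only through its libraries at 16 and 24 HPI, where it was high. With the compared groups alone 6 members were called at 1 HPI in place of 0. At 3 HPI DESeq2's Wald test called 2 and the filter of at least 10 counts called 1, in place of 0. With each library left out in turn the calls numbered 0 at 1 HPI, 0 to 1 at 3 HPI, 1 to 4 at 8 HPI, 19 to 26 at 16 HPI, 17 to 24 at 24 HPI and 1 to 4 between 24 and 16 HPI, and with each replicate number left out 21 to 22 over all groups. The median log2 fold change of the members was 0.0246 at 3 HPI with at least 10 counts, and -0.0206 at 8 HPI and -0.0259 at 24 HPI with upper-quartile factors. With libraries left out it ran from -0.0334 to -0.0110 at 1 HPI, -0.0130 to 0.0187 at 3 HPI, -0.00981 to 0.0127 at 8 HPI, -0.110 to -0.0879 at 16 HPI and -0.0967 to -0.0570 at 24 HPI. The cause of these changes was not tested, beyond the fewer samples of the fits with a library left out. With upper-quartile factors the calls at 16 HPI were 12 higher and 18 lower in place of 9 and 21. No log2 fold change of a named called member changed sign in any alternative. DESeq2's Wald test was not used for medians, and the compared groups alone not for the difference of 24 and 16 HPI or the test over all groups. With 3 libraries a group, differences under about the size of the intervals given could not be shown, and members that did not pass the filter, such as Cplx3 and Syt8, were not compared.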
